A study of Mus musculus with 11 samples.

Results

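The 45 genes described here carry out central carbon metabolism or belong to the response to low oxygen. They are 16 genes of glucose uptake and glycolysis, 6 of lactate and pyruvate fate, 4 of the pentose phosphate pathway, 5 of glutamine use and amino acid transport, 7 of serine and one-carbon metabolism, 6 of the hypoxia response and the polyamine gene Odc1. They were found by gene name among the 31469 names on the array, all 45 were present, and 43 were bright enough to test, among 20177 genes tested. Their levels were measured in mouse lymphomas of 3 types: 4 of plasma cell (PCL), 3 of mantle cell (MCL) and 4 of Burkitt type (BL). All 11 tumours came from lymph nodes of Black 6 mice of the genotype c-myc-3'RR/p53+/-, in which the 3' regulatory region (3'RR) of the immunoglobulin heavy chain genes, active in B cells, drives a c-myc transgene and only 1 copy of p53 is intact. Every type therefore shares the transgene and the p53 defect, and no tumour without them and no normal tissue was measured. Tumours carry their type and number as a name, such as PCL1, and each was hybridised to its own one-colour array.

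Glycolysis splits glucose into pyruvate and yields ATP without oxygen, and lactate dehydrogenase then turns pyruvate into lactate, which leaves the cell through monocarboxylate transporters. Branches of the same pathway feed the pentose phosphate cycle, which makes NADPH and ribose, and the synthesis of serine, which donates carbon units for nucleotides. The factor Hif1 switches on many glycolytic genes when oxygen is low, and Myc is known to switch on many of the same genes as well as genes of glutamine uptake, so this set of genes is of interest in lymphomas driven by a c-myc transgene.

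On each array 55.5% to 62.8% of spots were well above background, and precision is limited by how few arrays there are. The 3 types were run on 3 separate slides, 1 for each, so type and slide cannot be told apart. Whether the tumours of a type came from separate mice is not stated in the labels, and p-values therefore cover the spread between samples alone, which may be technical. All 8 mature B cell markers were detected, with summed levels of 222 to 318 in PCL, 249 to 261 in MCL and 293 to 328 in BL, in units of the array's 75th percentile. PCL1 stood apart from its type, with a mean correlation over genes of 0.945 with the other PCL tumours, which correlated at 0.977 among themselves, and of 0.952 with the BL tumours. The 7 plasma cell markers summed to 33.5 in PCL1 and to 61.7 to 65.4 in PCL2 to PCL4, against 28.4 to 42.5 in MCL and 30.9 to 37.6 in BL. The 19 macrophage and monocyte markers, all detected, summed to 14.5 in PCL1 and to 32.9 to 54.7 in PCL2 to PCL4, against 14.5 to 24.2 in MCL and 13.1 to 25.1 in BL. The 11 neutrophil markers summed to 1.02 in PCL1 and to 24.1, 6.05 and 9.18 in PCL2 to PCL4, against 1.71 to 3.91 in MCL and 0.872 to 10.9 in BL. Values without PCL1 are given for the members called and for those described below that it moved most.

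The glycolytic gene Aldoc and the signal of the probe listed for Pgk1, whose position in the files does not match that gene, were higher in PCL than in MCL, and the hypoxia target Adm was lower. These were 3 of the 43 members tested (6.98%), against 6.85% of all genes tested that were called between PCL and MCL, a share close to that of all genes. At an unadjusted p under 0.05 there were 11 members, against 24.3% of all genes. A gene was called at a Benjamini-Hochberg adjusted p under 0.05 in limma, a linear model fitted to all genes on all 11 arrays. Between PCL and BL limma called 0 of the 43 members (0.659% of all genes), with 6 members at an unadjusted p under 0.05 (14% of members, against 17.6% of all genes). Between MCL and BL it also called 0 members (6.63% of all genes), with 1 member at an unadjusted p under 0.05 (2.33%, against 18.4% of all genes). In the limma F test for any difference among the 3 types, 4 members passed (Hk2, Aldoc, Pgk1 and Adm), 9.3% of the members against 8.38% of all genes, and 8 members had an unadjusted p under 0.05, against 26.6% of all genes. The comparisons of PCL with MCL and of PCL with BL share the PCL tumours, so their values are set side by side and are not independent.

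Differences are given on the log2 scale, first-named type minus second, and levels as log2 of the signal over the array's 75th percentile. On this scale 0 is the 75th percentile itself, and levels of different genes come from different probes and cannot be compared with each other. The members' median difference was 0.12 between PCL and MCL, with 23 higher and 20 lower in PCL, against a median of -0.03 over all genes tested. It was 0.14 between PCL and BL, with 23 higher and 20 lower, against 0.09 over all genes. Between MCL and BL it was 0.00, with 21 higher and 22 lower in MCL, against 0.06 over all genes. The median standard error of a member's difference was 0.31 between PCL and MCL and 0.29 between PCL and BL.

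**Figure D1:**
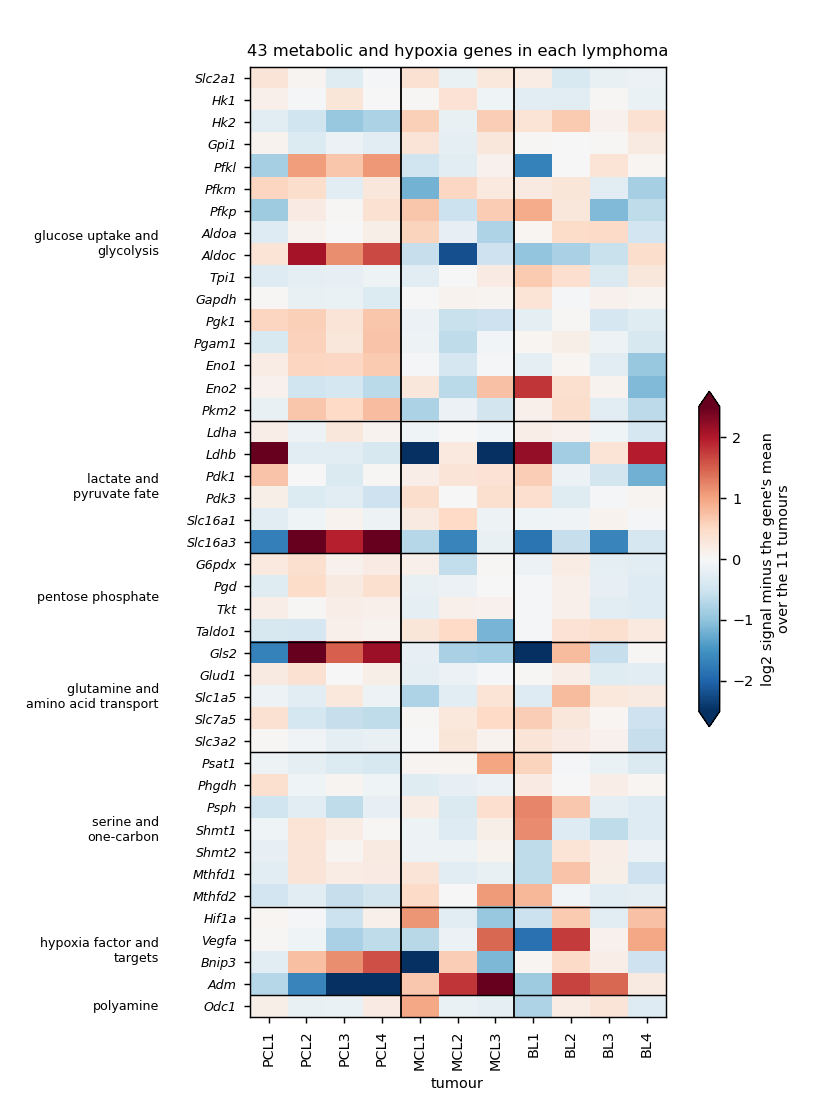
Level of the 43 members tested (rows, grouped by role) in each of the 11 tumours (columns), as log2 signal minus the gene's mean over all tumours, with the colour scale ending at 2.5 in either direction. Aldoc, Slc16a3 and Gls2 are high in PCL2 to PCL4, Adm is low in the PCL tumours, and most other rows show no block of colour that follows the type.

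The members differed widely in how much they varied between tumours. The range over all 11 tumours was under 1 log2 unit for 13 members (30.2%, against 19.2% of all genes tested): Slc2a1, Hk1, Gpi1, Gapdh, Ldha, Pdk3, Slc16a1, Pgd, Tkt, Glud1, Slc3a2, Phgdh and Shmt2. It was above 3 for 7 members (16.3%, against 20.1% of all genes): Aldoc, Ldhb, Slc16a3, Gls2, Vegfa, Bnip3 and Adm. Among the steady ones, Ldha, the lactate dehydrogenase subunit that favours lactate formation, had its lowest level of 6.95 in BL4 and its highest of 7.65 in PCL3. Hk1, the hexokinase found in most tissues, stayed between 6.81 in BL2 and 7.46 in MCL2. These ranges are those of the brightest probe of a gene. The dimmer Ldha probes ran from 1.78 to 3.14 and from 4.36 to 5.46, and those of Hk1 from 0.71 to 2.26 and from -3.56 to -2.28. Among the dimmer Gapdh probes were some that ran from 4.00 to 5.55 and from 6.23 to 7.19. The other probes of Glud1 and Phgdh kept a range under 1.

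The upstream sequences of the members that carry the comparisons are shown here, because Hif1 and Myc both bind short motifs near the starts of many of these genes. RefSeq windows of 300 bases (assembly GRCm38.p6, 250 bases before the start and 50 after) were matched to 42 members, with 57 windows in all because some genes have several starts. The members without an entry were Slc1a5, Slc7a5 and Gls2. The motif ACGTG, the core of the hypoxia response element, or its reverse complement CACGT occurred in 25 of the 57 windows (43.9%), against 19.6% of all 32851 mouse windows of that length. GCGTG or CACGC, the other form of that core, was found in 61.4% of the members' windows and in 32.4% of all windows. The palindrome CACGTG, an E-box that Myc binds, contains ACGTG and CACGT and stood in 8.77% of the members' windows and 7.15% of all windows. Some windows of the same gene overlap, as for Aldoa and Eno1, so the same match can be counted more than once. A match of letters is a description and not a binding site. The sequences below run 5' to 3' on the gene's strand, with capitals for ACGTG and CACGT. Pgk1, at chrX:106186850-106187149 on the plus strand, held 2 matches. Aldoc, at chr11:78322823-78323122 on the plus strand, held 1 in this window and 0 in its other window. Hk2, at chr6:82774405-82774704 on the minus strand, and Slc16a3, at chr11:120948817-120949116 on the plus strand, held 2 each. Adm, at chr7:110627407-110627706 on the plus strand, held 0. Of the other form, GCGTG or CACGC, the Adm window and the Aldoc window shown held 2 each, and those of Pgk1, Hk2 and Slc16a3 held 0.
Pgk1: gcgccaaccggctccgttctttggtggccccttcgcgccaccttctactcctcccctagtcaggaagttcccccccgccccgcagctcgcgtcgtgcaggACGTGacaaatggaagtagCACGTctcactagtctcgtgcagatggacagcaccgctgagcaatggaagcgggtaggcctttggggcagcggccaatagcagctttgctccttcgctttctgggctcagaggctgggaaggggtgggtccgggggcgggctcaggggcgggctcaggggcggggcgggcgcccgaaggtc
Aldoc: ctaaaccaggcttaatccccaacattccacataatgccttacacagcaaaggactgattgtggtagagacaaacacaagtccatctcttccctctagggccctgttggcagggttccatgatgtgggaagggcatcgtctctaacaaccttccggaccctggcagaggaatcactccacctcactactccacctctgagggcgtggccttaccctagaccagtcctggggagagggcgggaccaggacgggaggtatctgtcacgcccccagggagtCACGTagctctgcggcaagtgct
Hk2: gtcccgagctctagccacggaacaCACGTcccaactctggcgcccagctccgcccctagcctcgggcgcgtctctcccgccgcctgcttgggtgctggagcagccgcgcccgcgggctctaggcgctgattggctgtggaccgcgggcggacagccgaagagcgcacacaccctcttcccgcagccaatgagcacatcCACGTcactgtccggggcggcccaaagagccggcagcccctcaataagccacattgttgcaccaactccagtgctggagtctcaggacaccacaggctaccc
Slc16a3: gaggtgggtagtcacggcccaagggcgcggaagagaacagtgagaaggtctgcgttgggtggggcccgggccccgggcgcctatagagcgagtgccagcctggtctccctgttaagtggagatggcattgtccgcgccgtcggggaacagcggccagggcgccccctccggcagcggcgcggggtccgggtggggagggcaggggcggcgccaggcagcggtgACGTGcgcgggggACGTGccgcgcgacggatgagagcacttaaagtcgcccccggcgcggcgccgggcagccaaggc
Adm: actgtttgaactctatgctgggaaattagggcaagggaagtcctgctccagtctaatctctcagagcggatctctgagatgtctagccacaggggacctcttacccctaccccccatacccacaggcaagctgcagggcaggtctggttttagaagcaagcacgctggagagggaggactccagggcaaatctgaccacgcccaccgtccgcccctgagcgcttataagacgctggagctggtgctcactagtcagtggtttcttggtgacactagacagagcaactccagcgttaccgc

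Of the 16 genes of glucose uptake and glycolysis, 2 rose in PCL over MCL (2.11% of all genes did), 0 fell (4.75% of all genes did), and 14 were not called. Their median difference was 0.06, with 9 higher and 7 lower in PCL. Aldoc encodes the brain-type isoform of aldolase, which splits fructose bisphosphate. Its level was -0.60, 1.14, 0.23 and 0.71 in PCL1 to PCL4, against -1.50, -3.13 and -1.46 in MCL1 to MCL3 and -1.91, -1.74, -1.50 and -0.50 in BL1 to BL4. All PCL tumours were above all MCL tumours, PCL1 was the lowest of its type, and BL4 was just above PCL1. Aldoc was 5.29-fold higher in PCL than in MCL (difference 2.40 ± 0.54 SE, limma adjusted p = 0.0302). The difference from BL was 1.78 ± 0.50, which limma did not call (adjusted p = 0.112). Without PCL1 it was 2.73 ± 0.52 over MCL (adjusted p = 0.0141) and 2.11 ± 0.49 over BL (adjusted p = 0.0431). Over the 21 other settings the adjusted p against MCL ran from 0.00496 to 0.0948, and the call was lost without any one of PCL2 (0.0859), PCL3 (0.0673), PCL4 (0.0875), MCL1 (0.0512), MCL2 (0.0911) or MCL3 (0.05004), with normexp background correction (0.0572), with only the 2 types fitted (0.0631) and with array position as a block (0.0948).

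Pgk1 encodes phosphoglycerate kinase, the first step of glycolysis that yields ATP. The signal of its only probe was 5.84, 5.91, 5.63 and 6.00 in PCL1 to PCL4, against 5.16, 4.74 and 4.79 in MCL1 to MCL3 and 5.07, 5.33, 4.89 and 4.99 in BL1 to BL4. All PCL tumours, PCL1 included, lay above all MCL and BL tumours. The signal was 1.93-fold higher in PCL than in MCL (difference 0.95 ± 0.18 SE, limma adjusted p = 0.0180). Over BL the difference was 0.77 ± 0.17 and missed the threshold (adjusted p = 0.0655). Without PCL1 the differences were 0.95 ± 0.20 (adjusted p = 0.0185) and 0.77 ± 0.19 (adjusted p = 0.0473). The files give this probe the Pgk1 transcript's accession but place it at chr3:57906830-57906894 (build mm9), whereas RefSeq puts the gene on chromosome X, so the signal cannot be tied to the X-linked gene alone. The adjusted p against MCL ran from 0.00373 to 0.117 over 21 other settings, and the call was lost without PCL2 (0.0610), PCL4 (0.0623), MCL2 (0.0638) or MCL3 (0.0575), with normexp correction (0.117) and with the position block (0.0671).

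Hk2 encodes the inducible hexokinase that traps glucose in the cell. It read 0.13, -0.09, -0.56 and -0.39 in PCL1 to PCL4, against 0.98, 0.22 and 1.02 in MCL1 to MCL3 and 0.74, 1.05, 0.50 and 0.78 in BL1 to BL4. Every PCL tumour was below every MCL and BL tumour, although MCL2 was close to PCL1. The difference was -0.97 ± 0.25 SE from MCL, which just missed the limma threshold (adjusted p = 0.0502), and -0.99 ± 0.24 from BL (adjusted p = 0.0830). Without PCL1 it passed against both, at -1.09 ± 0.26 (adjusted p = 0.0295) and -1.11 ± 0.24 (adjusted p = 0.0362). Against MCL it also passed without MCL2 (adjusted p = 0.0376) and in 5 settings that keep all tumours, and over 21 other settings the adjusted p ran from 0.00779 to 0.144.

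Eno1 encodes the widely expressed enolase, and Eno2 the neuronal one. For Eno1 the PCL tumours had 6.61, 6.98, 6.95 and 7.09, against 6.41, 6.01 and 6.38 in MCL1 to MCL3 and 6.18, 6.47, 6.16 and 5.48 in BL1 to BL4. The PCL values stood above those of both other types, with PCL1 the nearest to them. Limma did not call the difference of 0.64 ± 0.24 from MCL (adjusted p = 0.143) or that of 0.83 ± 0.23 from BL (adjusted p = 0.110), nor did it without PCL1, at 0.74 ± 0.25 (0.0911) and 0.93 ± 0.24 (0.0566). Eno2 differed by -0.49 ± 0.59 from MCL and by -0.67 ± 0.54 from BL, neither called, and reached its highest level, -0.63, in BL1.

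Pkm2, the pyruvate kinase gene that makes the last step of glycolysis, had 4.88, 5.75, 5.56 and 5.83 in PCL1 to PCL4, against 4.28, 4.92 and 4.61 in MCL and 5.19, 5.51, 4.79 and 4.41 in BL. PCL2 to PCL4 were above all other tumours and PCL1 was not. The difference from MCL was 0.90 ± 0.32 (adjusted p = 0.115), and without PCL1 it was 1.11 ± 0.29 (limma adjusted p = 0.0409). Pgam1, phosphoglycerate mutase, had its 3 highest levels in PCL4, PCL2 and PCL3 (6.34, 6.20 and 5.93), with PCL1 at 5.26, and differed by 0.58 ± 0.28 from MCL (adjusted p = 0.236), or by 0.80 ± 0.23 without PCL1 (adjusted p = 0.0520). Pfkl, the liver-type phosphofructokinase, had 1.31, 0.97 and 1.35 in PCL2 to PCL4 but -0.55 in PCL1, against -0.22 to 0.37 in MCL and -1.42 to 0.61 in BL. Its difference from BL was 0.83, and 1.27 ± 0.44 without PCL1 (adjusted p = 0.139).

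The other 8 glycolytic members had differences between -0.33 and 0.39 from MCL and between -0.47 and 0.39 from BL, none of them called. They are the glucose transporter Slc2a1, Hk1, glucose phosphate isomerase Gpi1, the phosphofructokinases Pfkm and Pfkp, the muscle-type aldolase Aldoa, triosephosphate isomerase Tpi1 and glyceraldehyde phosphate dehydrogenase Gapdh. For Gapdh, 8 probes were on the array and all gave a difference below 0 from MCL and from BL (as did the gene under each other setting), from -0.49 to -0.07 against MCL, and 2 of the 8 lie on chromosomes 7 and 8 in the files, not on the gene's chromosome 6. Slc2a1, a main glucose transporter of activated lymphocytes, had 1.22, 0.96, 0.59 and 0.85 in PCL, against 1.26, 0.72 and 1.15 in MCL and 1.07, 0.51, 0.71 and 0.73 in BL, with full overlap of the types.

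**Figure D2:**
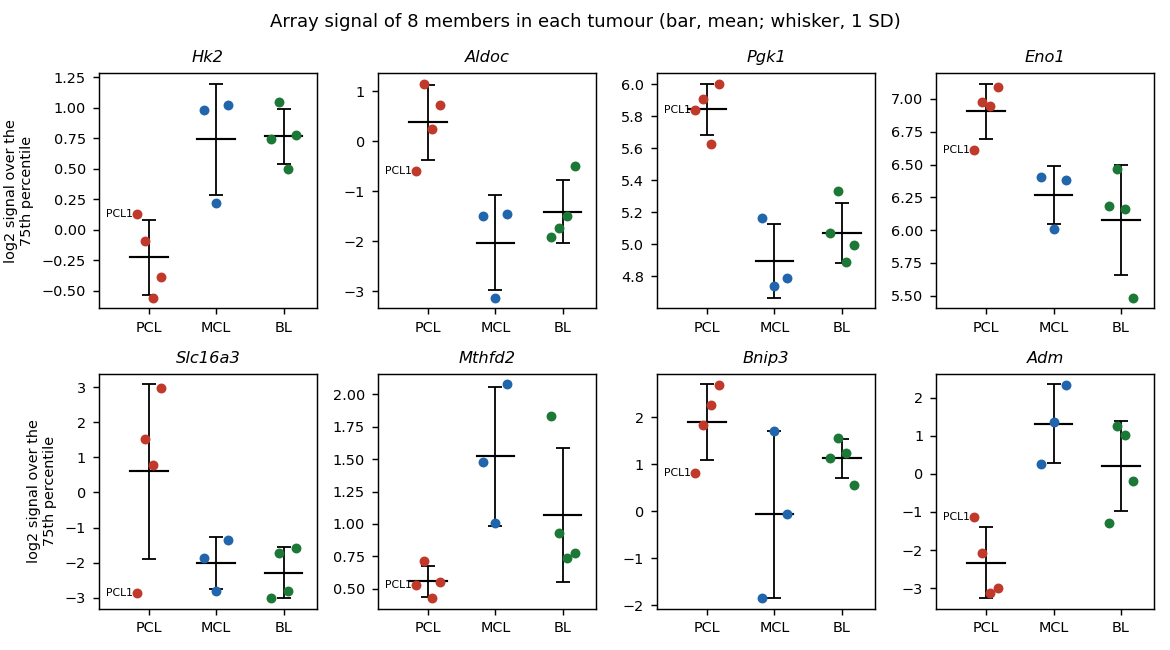
Log2 signal over the array's 75th percentile for 8 members in each tumour (points, with PCL1 named), with the mean of the type as a bar and 1 SD as a whisker (4 PCL, 3 MCL and 4 BL tumours). The PCL tumours do not overlap the MCL or BL tumours for Hk2, Pgk1, Eno1 and Mthfd2, and PCL1 sits with the other types for Slc16a3.

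None of the 6 genes of lactate and pyruvate fate was called in any comparison, and their median difference between PCL and MCL was -0.01. Slc16a3 encodes Mct4, the monocarboxylate transporter that exports lactate from strongly glycolytic cells. It read -2.86, 1.51, 0.78 and 2.97 in PCL1 to PCL4, against -1.86, -2.80 and -1.34 in MCL1 to MCL3 and -2.99, -1.73, -2.81 and -1.58 in BL1 to BL4. PCL2 to PCL4 were above all other tumours, while PCL1 was among the lowest 3 of the 11. With all PCL tumours the difference was 2.60 ± 1.12 from MCL (limma adjusted p = 0.187) and 2.88 ± 1.03 from BL (adjusted p = 0.191). Without PCL1 it was 3.75 ± 0.63 from MCL (adjusted p = 0.00893) and 4.03 ± 0.59 from BL (adjusted p = 0.00856). A second probe of Slc16a3 gave differences of 2.82 and 2.88 with all PCL tumours, but its position overlaps that of the first, so it reads nearly the same bases. The summed macrophage and monocyte markers divided the PCL tumours in the same way, at 14.5 in PCL1 and 54.7, 32.9 and 37.6 in PCL2 to PCL4. So did the summed plasma cell markers, at 33.5 and at 65.4, 61.7 and 63.7, but not each of them. Prdm1 and Tnfrsf17 were highest of the PCL tumours in PCL1 (-0.68 and -4.87), and Jchain was higher there (0.47) than in PCL3 (0.09). Mzb1, which had the highest signal of the 7, Sdc1, Xbp1 and Irf4 were lowest of the PCL tumours in PCL1. The summed neutrophil markers were also lowest of the PCL tumours in PCL1, at 1.02 against 6.05 to 24.1 in the others, although BL4 reached 10.9. The part of any of these in the Slc16a3 signal was not tested, and in such bulk tissue fewer cells of a type and less RNA per cell cannot be told apart.

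**Figure D3:**
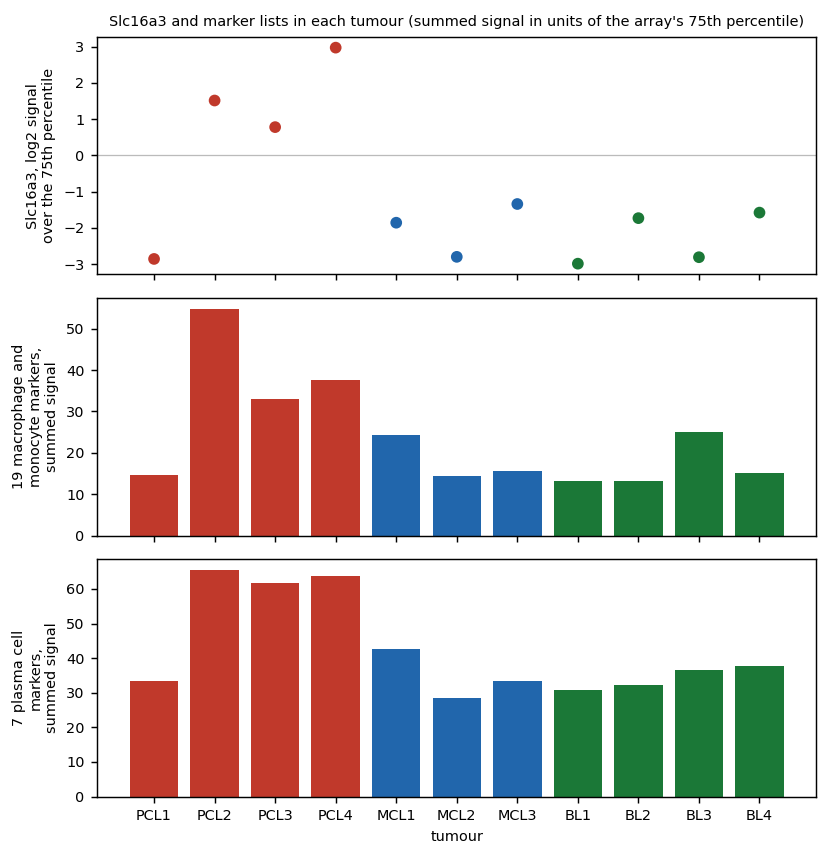
Slc16a3 (top, log2 signal over the array's 75th percentile), the summed signal of 19 macrophage and monocyte markers (middle) and of 7 plasma cell markers (bottom), in units of the array's 75th percentile, in each of the 11 tumours. PCL2 to PCL4 are the highest 3 tumours in all panels, and PCL1 lies within the levels of the MCL and BL tumours.

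Ldhb, the lactate dehydrogenase subunit that favours pyruvate, was well above background on 9 arrays, all PCL and BL arrays but only 1 MCL array. Its level was -1.61, -4.38, -4.38 and -4.49 in PCL1 to PCL4, against -6.90, -3.85 and -6.69 in MCL1 to MCL3 and -1.91, -4.96, -3.75 and -2.14 in BL1 to BL4. PCL1, BL1 and BL4 were the highest tumours, and each type overlapped the others. The difference of 2.10 ± 1.03 between PCL and MCL was not called (adjusted p = 0.244) and was 1.40 ± 0.95 without PCL1 (adjusted p = 0.368), nor was that of -2.62 ± 1.03 between MCL and BL (adjusted p = 0.198). The pyruvate dehydrogenase kinases Pdk1 and Pdk3, which inhibit pyruvate dehydrogenase, differed by -0.19 ± 0.39 and -0.52 ± 0.23 between PCL and MCL. Slc16a1, the other lactate transporter, was steady, from -3.54 in PCL1 to -2.76 in MCL2.

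The 4 pentose phosphate genes were not called in any comparison. G6pdx, the enzyme that commits glucose to this pathway, averaged 2.90 ± 0.12 in PCL, against 2.51 ± 0.41 in MCL and 2.54 ± 0.21 in BL (SD, n = 4, 3 and 4). Pgd, the next NADPH-producing enzyme, differed by 0.31 ± 0.21 between PCL and MCL, transketolase Tkt by 0.12 ± 0.17 and transaldolase Taldo1 by -0.03 ± 0.37. Taldo1 had its lowest level, 3.47, in MCL3, and its highest, 5.14, in MCL2.

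No gene of glutamine use and amino acid transport was called, and the 5 had a median difference of 0.18 from MCL and of -0.13 from BL. Gls2, the liver-type glutaminase, was a dim probe, well above background on 3 PCL arrays, 1 MCL array and 1 BL array. Its level was -6.89, -2.36, -3.72 and -3.06 in PCL1 to PCL4, against -5.40, -6.02 and -6.05 in MCL and -8.39, -4.41, -5.77 and -5.17 in BL. PCL2 to PCL4 were the highest 3 tumours and PCL1 was below all MCL tumours. Limma did not call the difference of 1.82 ± 1.12 from MCL (adjusted p = 0.351) or of 1.93 ± 1.04 from BL (adjusted p = 0.373). Without PCL1 the differences were 2.78 ± 0.88 (adjusted p = 0.0711) and 2.89 ± 0.82 (adjusted p = 0.0759), also not called. Glud1, glutamate dehydrogenase, had 3.63, 3.79, 3.41 and 3.54 in PCL, all above the 3.18, 3.25 and 3.38 in MCL, but the difference of 0.32 ± 0.17 was not called (adjusted p = 0.293) and its other probe gave 0.01. The glutamine transporter Slc1a5 and the transporter pair Slc7a5 and Slc3a2, which exchange glutamine for leucine, differed by 0.18, -0.58 and -0.25 between PCL and MCL. A second Slc7a5 probe gave 0.02.

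The 7 genes of serine and one-carbon metabolism had no call either. Mthfd2, the mitochondrial enzyme that carries one-carbon units of serine to formate, had 0.53, 0.72, 0.43 and 0.55 in PCL1 to PCL4, against 1.48, 1.01 and 2.08 in MCL1 to MCL3 and 1.83, 0.93, 0.74 and 0.78 in BL1 to BL4. Every PCL tumour was below every MCL and BL tumour, by little for PCL2 against BL3. The difference was -0.97 ± 0.31 from MCL (limma adjusted p = 0.0944) and -0.51 ± 0.29 from BL (adjusted p = 0.401). Without BL1, which left the difference from MCL as it was but changed the estimate of the spread, the adjusted p was 0.0461, on a range of 0.0128 to 0.265 over 21 other settings.

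Psat1, the transaminase of serine synthesis, had 3.61, 3.51, 3.40 and 3.33 in PCL, against 3.80, 3.79 and 4.72 in MCL and 4.28, 3.68, 3.56 and 3.36 in BL. The PCL tumours were below the MCL tumours and overlapped the BL tumours, and the difference from MCL was -0.64 ± 0.28 (adjusted p = 0.195). On its other probe, where the difference was -0.48, MCL1 (-0.41) lay among the PCL tumours (-0.53 to -0.09). Phgdh, which catalyses the first step of serine synthesis, was the single member whose MCL tumours (5.42, 5.50 and 5.56) did not overlap the BL tumours (5.92, 5.72, 5.87 and 5.76), 2.33% of members against 17.7% of all genes. That difference was -0.33 ± 0.17 (adjusted p = 0.353). Psph, the last enzyme of serine synthesis, was highest in BL1 (3.45) and differed by -0.74 ± 0.34 between PCL and BL (adjusted p = 0.303). Shmt1, Shmt2 and Mthfd1, which move the one-carbon unit from serine to folate and onward, had differences of 0.14 to 0.22 from MCL and from BL.

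Of the 6 hypoxia genes, the hydroxylase Egln3 and carbonic anhydrase Car9, both known targets of Hif1, did not pass the brightness filter. The 2 Egln3 probes were well above background on 2 arrays, 1 PCL and 1 MCL, and on 1 array, a PCL. The Car9 probe was well above background on 1 PCL array. Adm was the 1 gene called of the other 4. It encodes the vasodilator peptide adrenomedullin and is a known Hif1 target. Its level was -1.13, -2.07, -3.13 and -2.98 in PCL1 to PCL4, against 0.25, 1.36 and 2.32 in MCL1 to MCL3 and -1.30, 1.27, 1.01 and -0.19 in BL1 to BL4. All PCL tumours were below all MCL tumours, and of the BL tumours BL1 alone fell among the PCL values. Adm was 12.5-fold lower in PCL than in MCL (difference -3.64 ± 0.73 SE, limma adjusted p = 0.0219). From BL it differed by -2.53 ± 0.68, which was not called (adjusted p = 0.107). Without PCL1 the differences were -4.04 ± 0.73 (adjusted p = 0.0120) and -2.93 ± 0.69 (adjusted p = 0.0446). The adjusted p against MCL ran from 0.00223 to 0.0741 over 21 other settings, and the call was lost without PCL2 (0.0590), PCL3 (0.0610), PCL4 (0.0694), MCL2 (0.0673) or MCL3 (0.0687), with normexp correction (0.0527) and with the position block (0.0741).

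Bnip3, which marks mitochondria for removal and is also known to be induced by Hif1, had 0.81, 1.83, 2.25 and 2.70 in PCL1 to PCL4, against -1.84, 1.71 and -0.04 in MCL1 to MCL3 and 1.13, 1.56, 1.25 and 0.57 in BL1 to BL4. PCL2 to PCL4 were above all other tumours, and the MCL tumours were spread over more than 3 log2 units. The difference from MCL was 1.96 ± 0.73 (adjusted p = 0.133) and the other probes gave 2.02 and 2.61. The 2.61 came from a dim probe that was well above background on only 1 MCL array. Without PCL1 it was 2.32 ± 0.74 (adjusted p = 0.0735). Without MCL2 it was 2.84 and passed (adjusted p = 0.0479), on a range of 0.0194 to 0.321 over 21 other settings. Adm was thus lower in PCL than in MCL, while the difference of Bnip3, which was not called with all tumours, was positive. Hif1a, which encodes the oxygen-regulated subunit of that factor, had -0.52, -0.60, -1.10 and -0.43 in PCL, against 0.54, -0.84 and -1.51 in MCL and -1.10, 0.09, -0.84 and 0.18 in BL, with full overlap. Hif1 is regulated mainly through protein stability, which arrays do not measure. Vegfa, the vascular growth factor, ranged from -3.10 in BL1 to 0.52 in BL2 and did not follow the type.

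Odc1, the rate-limiting enzyme of polyamine synthesis and a known Myc target, ranged from 3.14 in BL1 to 4.89 in MCL1. Its difference was -0.20 ± 0.35 between PCL and MCL (adjusted p = 0.767), and its 4 probes ran from -0.77 to 0.20.

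**Figure D4:**
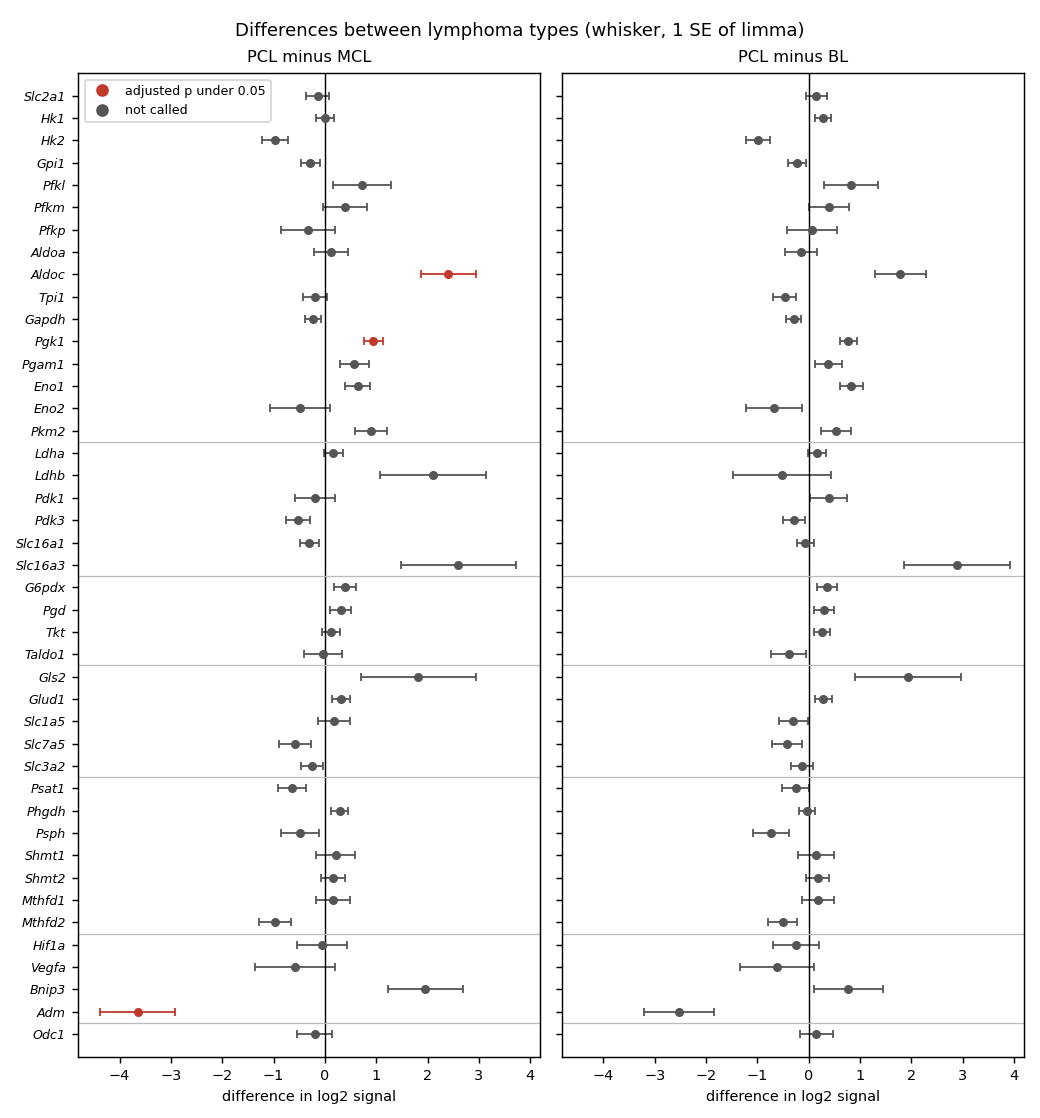
Difference in log2 signal for each of the 43 members, PCL minus MCL (left) and PCL minus BL (right), with 1 SE of the limma fit as a whisker and members in the order of their roles, grey lines between roles. Aldoc, Pgk1 and Adm are called between PCL and MCL, 0 members are called between PCL and BL, and both panels use the same PCL tumours.

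The count of members called depended on single tumours. Between PCL and MCL it fell to 0 without PCL2, PCL4 or MCL3 and to 1 without PCL3, and it rose most without PCL1. With PCL1 left out, 6 members were called between PCL and MCL (14%, against 12.2% of all genes): Aldoc, Pgk1, Pkm2 and Slc16a3 higher and Hk2 and Adm lower. Between PCL and BL 5 were called (11.6%, against 5.35% of all genes), namely the same genes apart from Pkm2. In tumours that did not overlap by type, 9 members separated PCL from MCL (20.9%, against 22.8% of all genes) and 4 separated PCL from BL (9.3%, against 11% of all genes). The 4 were Hk2, Pgk1, Eno1 and Mthfd2. These counts use the brightest probe of a gene, and Psat1 and Glud1, which are among the 9, overlapped on their other probe.

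Several members lie on chromosomes 6 and 7, where the brighter genes tended to have lower signals in PCL. Another 3 lie on chromosome 11, where the brighter genes tended to have higher ones. Brighter genes here are those whose mean level was above the median of all genes tested, a limit not set for the members. The 454 brighter genes on chromosome 6 had a median difference of -0.47 from MCL and of -0.63 from BL. The 752 on chromosome 7 had medians of -0.33 and -0.43. All brighter genes outside chromosomes 6 and 7, those on 11 and X included, had medians of 0.08 and 0.06. In PCL1 alone the chromosome 6 medians were -0.05 and -0.18. Hk2, Tpi1, Gapdh, Eno2, Ldhb and Mthfd2 lie on chromosome 6, and 5 of these 6 members were lower in PCL than in MCL and all 6 lower than in BL. On chromosome 7 lie Gpi1, Aldoa, Ldha, Taldo1, Slc1a5, Bnip3 and Adm, of which 3 of 7 were lower in PCL than in MCL and 5 of 7 lower than in BL. The 831 brighter genes on chromosome 11, where Aldoc, Slc16a3 and Shmt1 lie, had medians of 0.27 from MCL and 0.12 from BL. These medians were 0.03 and -0.07 in PCL1 alone and 0.34 and 0.18 without it. The part of the chromosome-wide shifts in the Hk2, Mthfd2, Adm, Aldoc and Slc16a3 values was not tested.

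Beyond the module, 97 other genes of the same pathways were listed, and 85 of them were bright enough to test. Of these, 1 rose and 3 fell in PCL against MCL, where 2.11% of all genes rose and 4.75% fell, and their median difference was -0.01. Against BL 3 rose and 0 fell, where 0.456% of all genes rose and 0.203% fell. Between MCL and BL 1 was higher in MCL, where 6.42% of all genes were higher.

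H6pd encodes the hexose-6-phosphate dehydrogenase of the endoplasmic reticulum, which makes NADPH there. Its level was 0.34, 1.29, 1.76 and 1.49 in PCL1 to PCL4, against -0.68, -1.48 and -1.37 in MCL1 to MCL3 and -0.29, -1.14, -0.93 and -1.45 in BL1 to BL4. All PCL tumours were above all others, with PCL1 the lowest PCL. The difference was 2.39 ± 0.38 SE from MCL (limma adjusted p = 0.00969) and 2.17 ± 0.36 from BL (adjusted p = 0.0323). Without PCL1 it was 2.69 (adjusted p = 0.00261) and 2.47 (adjusted p = 0.00435). The first call held in 20 of 21 other settings, with adjusted p from 0.000695 to 0.0504, the highest with the position block. The second held in 12 of 21, with adjusted p from 0.00185 to 0.116, and was lost without PCL2 (0.116), PCL3 (0.115), PCL4 (0.110), BL2 (0.0786), BL3 (0.0726) or BL4 (0.0762), with normexp correction (0.0747), with only the 2 types fitted (0.0525) and with the position block (0.0874).

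Car12, a membrane carbonic anhydrase listed among the hypoxia genes, had 2.43, 3.35, 3.33 and 3.44 in PCL1 to PCL4, against 1.72, 1.54 and 2.43 in MCL1 to MCL3 and 0.98, 1.12, 1.65 and 0.56 in BL1 to BL4. The PCL tumours were above the BL tumours, and PCL1 and MCL3 were level. The difference from BL was 2.06 ± 0.32 SE (limma adjusted p = 0.0288), and that from MCL, 1.24 ± 0.34, was not called (adjusted p = 0.0577). Without PCL1 both passed, at 2.29 from BL (adjusted p = 0.00446) and 1.48 from MCL (adjusted p = 0.0189). Against BL the adjusted p ran from 0.00367 to 0.107 over 21 other settings, and the call was lost without PCL2 (0.107), PCL3 (0.104), PCL4 (0.0975), BL1 (0.0536), BL2 (0.0717) or BL4 (0.0659) and with normexp correction (0.0747).

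Pdk2, a further pyruvate dehydrogenase kinase, had -1.37, -1.66, -1.93 and -1.39 in PCL1 to PCL4, against -2.70, -2.98 and -2.99 in MCL and -2.89, -3.83, -2.68 and -4.24 in BL. All PCL tumours were above all others. The difference of 1.82 ± 0.33 SE from BL was called (limma adjusted p = 0.0461), while that of 1.30 ± 0.36 from MCL was not (adjusted p = 0.0581). Without PCL1 they were 1.75 (adjusted p = 0.0328) and 1.23 (adjusted p = 0.0749). The call against BL held in 6 of 21 other settings, with adjusted p from 0.00889 to 0.142, and was lost with normexp correction (0.0932), with quantile normalization (0.0555) and, among others, when any one tumour other than PCL1 or BL3 was left out.

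Of the genes that fell in PCL against MCL, Slc1a4, a transporter of serine and other neutral amino acids, had 0.29, 0.20, 0.29 and 0.16 in PCL1 to PCL4, against 0.71, 1.33 and 1.26 in MCL1 to MCL3 and 0.34, 0.45, -0.04 and 0.65 in BL1 to BL4. The PCL tumours were nearly equal and all below the MCL tumours. The difference was -0.86 ± 0.21 SE (limma adjusted p = 0.0398), or -0.88 without PCL1 (adjusted p = 0.0408), and held in 10 of 21 other settings, with adjusted p from 0.00667 to 0.126. It was lost without PCL2 (0.105), PCL3 (0.0853), PCL4 (0.110), MCL2 (0.126), MCL3 (0.114) or BL2 (0.0575), and in 5 settings that keep all tumours, among them normexp correction (0.104) and the position block (0.104). Sdsl, a homologue of serine dehydratase, differed by -0.64 ± 0.16 (adjusted p = 0.0458), or by -0.68 without PCL1 (adjusted p = 0.0386), with PCL at -1.53 to -1.19 and MCL at -0.80 to -0.65, and the call held in 8 of 21 other settings and was lost with normexp correction (0.258) and, among others, when any one tumour other than PCL1 or BL3 was left out. Ldhc, the testis-type lactate dehydrogenase, was called (adjusted p = 0.0414) but was not well above background on any PCL or BL array, the bound on its ratio was below 1, and no fold is given. Pgam2, the muscle-type mutase, was higher in MCL than in BL by 1.98 ± 0.48 (limma adjusted p = 0.0365), with -0.65, -3.07 and -2.16 in MCL1 to MCL3, against -4.29, -3.86, -3.74 and -3.87 in BL1 to BL4. MCL1 stood above the rest, without it the difference was 1.33 (adjusted p = 0.0683), and the call held in 6 of 21 other settings. Of the fits that leave out 1 tumour, only those without PCL1 or without MCL2 kept it, and with normexp correction the difference was 1.15 (adjusted p = 0.537).

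**Figure D5:**
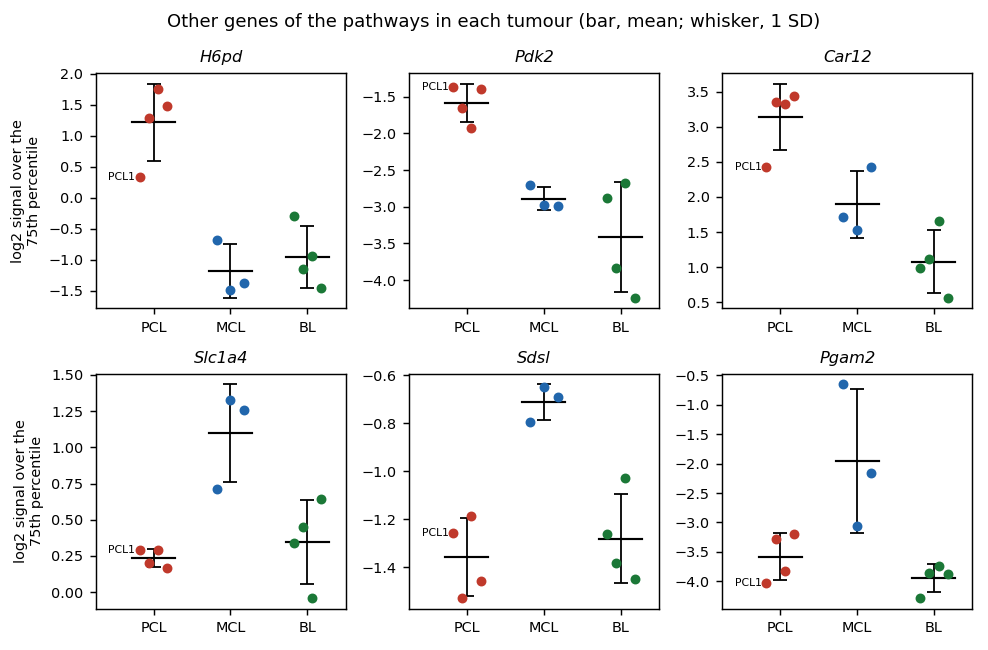
Log2 signal over the array's 75th percentile for 6 other genes of the pathways in each tumour (points, with PCL1 named), with the mean of the type as a bar and 1 SD as a whisker. The PCL tumours are above all others for H6pd and Pdk2 and below the MCL tumours for Slc1a4 and Sdsl, and MCL1 is the highest tumour for Pgam2.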

How the data were processed

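RNA of 11 mouse lymphomas was measured on Agilent one-colour arrays, and samples were grouped by the tumour origin in the labels. Total RNA (0.2 micrograms, RNA integrity numbers 8 to 10) was labelled with Cy3, per the labels' protocols. Per the file headers, the deposited scanner files come from Feature Extraction 10.7.3.1 (Agilent) and hold spot intensity on a linear scale, with no normalization between arrays. In 21.5% to 29.2% of the spots of an array the software had set a substitute value. The authors' deposited value table is in log2 units found from its values. Within an array it ranked spots as the scanner's median signal did (Spearman correlation 1) and its column medians were 7.25 to 7.26. It served as an alternative, and no source used here gives how the authors made it.

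Non-control spots (43020 of 39429 probes) without outlier flags were averaged by probe, and 46 probes with no spot left on an array were dropped. Of the spots 0 were saturated. From the log2 processed signal each array's 75th percentile (1067 to 1632 intensity units) was subtracted. A probe was kept if 3 or more arrays read it well above background (25296 probes), and the probe brightest on average stood for its gene, which left 20177 genes. RefSeq of GRCm38.p6 named 26686 probes by accession, 2531 by current symbol and 474 by older symbol, and 9738 kept the name in the files. Probe coordinates are those of the files (build mm9).

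limma 3.58.1 in R 4.3.3 fitted a mean per type to all arrays (8 residual and 2.01 prior degrees of freedom), with contrasts and a moderated F test, adjusted by Benjamini-Hochberg over all genes. Adjusted p-values under an alternative come from limma fits changed in that 1 choice. The fit to all arrays was tested on simulated data. The text names the members called, the 8 with the largest differences per comparison, the rest by role, and other pathway genes that were called. The members, roles and pathway lists were chosen with earlier results of these data known. Alternatives changed the background correction, normalization, source of values, brightness filter (none, or at least 6 arrays), probe summary, types fitted, array weights, RNA integrity number, array position and each tumour left out in turn.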

Additional observations from a re-analysis of the deposited data

Results flagged for a closer look

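In 86 groups of 4 tumours (each member in PCL and in BL) 3 values lay far from the other 3 by Dixon's test, which chance alone does in about 1 group in 20. Ldhb was -1.61 in PCL1, whereas PCL2 to PCL4 lay between -4.49 and -4.38. Pfkl was -1.42 in BL1, whereas the other BL tumours lay between 0.26 and 0.61. Gpi1 was 6.03 in BL4, whereas the others lay between 5.82 and 5.85, a gap that is small in absolute terms.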

How the results depend on the processing

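Each type lies on 1 slide, so no slide term could be fitted, and the dim probes moved with the background treatment: with normexp the uncalled difference between PCL and BL was 0.90 for Gls2, against 1.93 otherwise, and that between PCL and MCL was 1.32 for Ldhb, against 2.10. With all tumours 3 members were called between PCL and MCL, 0 between PCL and BL, 0 between MCL and BL and 4 by the F test among the types. With normexp background correction the counts were 0, 0, 0 and 0, with array quality weights 14, 6, 0 and 14, and without a filter on dim probes 3, 0, 0 and 2. Array numbers are positions on the slide. Deviations from the type means at the same position correlated from -0.0469 to 0.172 over 10 pairs, with 3 pairs over 0.1. All but PCL2 with MCL2 and PCL2 with BL2 were above 0. At different positions they ran from -0.237 (PCL1 with BL4) to 0.170 (PCL3 with BL4). Whether arrays of the same number are linked was not tested. With position as a replicate block the counts were 0, 0, 0 and 0. Leaving out 1 tumour gave 0 to 6 members between PCL and MCL, 0 to 5 between PCL and BL, 0 between MCL and BL and 0 to 5 by the F test. The count between PCL and MCL was 6 without PCL1, 0 without PCL2, PCL4 or MCL3, 1 without PCL3, 2 without MCL1 or MCL2, and 3 or 4 without a BL tumour. Array weights gave PCL1 the lowest weight, 0.382, and PCL2 the highest, 2.77.

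Among all genes, 1383 were called between PCL and MCL, against 197 with normexp, 684 without a filter, 740 with only the 2 types fitted, 4430 with array weights, 390 with the replicate block and 330 to 2456 with 1 tumour left out. Between PCL and BL 133 were called, against 13 with normexp, 85 without a filter, 2182 with array weights, 65 with the replicate block and 5 to 1079 with 1 tumour left out. Between MCL and BL 1337 were called, against 64 with normexp, 746 with quantile normalization, 680 in the authors' table, 290 with only the 2 types fitted, 361 with the replicate block and 683 to 1365 with 1 tumour left out. The F test called 1690, against 129 with normexp, 1042 without a filter, 4752 with array weights, 338 with the replicate block and 711 to 2817 with 1 tumour left out. Normexp moved the median of all genes to 0.16 between PCL and MCL and to -0.10 between MCL and BL, and the share higher in PCL among genes called between PCL and MCL to 46.2%, against 30.7% otherwise. Between PCL and BL that share was 69.2%, but 57.7% with quantile normalization, 50.6% in the authors' table and 38.5% with normexp. Of the single genes named, Ldhc reversed between PCL and MCL, at 0.29 with normexp (adjusted p = 0.812). Of the other values of these single genes, 104 lost a call, 31 gained one and the rest kept their direction and side of the threshold. The causes were not tested.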

Other observations

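The extremes of the 43 members were spread unevenly over the tumours. PCL4 had the highest level of 7 members (Pfkl, Pgk1, Pgam1, Eno1, Pkm2, Slc16a3 and Bnip3), 16.3% of members against 7.90% of all genes tested, and the lowest of 4 (Gapdh, Pdk3, Slc7a5 and Psat1), 9.3% against 8.34%. PCL2 had the highest level of 5 members (11.6%, against 5.69% of all genes) and PCL3 of 1 (2.33%, against 8.62%). MCL2 had the highest level of 3 (6.98%, against 16.3% of all genes). MCL3 was near the share of all genes. It had the highest level of 3, Psat1, Mthfd2 and Adm (6.98%, against 7.94% of all genes). It had the lowest of 3, Aldoa, Taldo1 and Hif1a (6.98%, against 7.40% of all genes). BL1 had the highest level of 8 members (Pfkp, Tpi1, Gapdh, Eno2, Slc7a5, Slc3a2, Psph and Shmt1), 18.6% against 12.0% of all genes, and the lowest of 7, 16.3% against 14.8%. BL3 and BL4 had the highest level of 0 members, where they had it for 4.05% and 9.38% of all genes. BL4 had the lowest of 7 (Eno1, Eno2, Ldha, Pdk1, Pgd, Tkt and Slc3a2), 16.3% against 11.8% of all genes. These counts describe single tumours and were not tested.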
